A study of Homo sapiens with 6 samples.

Results

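The EGF family and its receptors were examined as 10 genes: the ligands AREG, EREG, HBEGF, TGFA, BTC and NRG1, the receptors EGFR, ERBB2 and ERBB3, and the receptor inhibitor ERRFI1. They were taken by symbol from the 58735 genes of the deposited files. All 10 were found and no symbol was repeated. The libraries came from MUM2B, a cell line that the labels call melanoma, in serum-containing medium. In 3 libraries the cells stably overexpressed LACTB, a serine beta-lactamase-like protein of mitochondria, and in 3 they stably carried an empty vector. The sources used here do not give the promoter of the vector or whether each line was 1 clone or a pool. No label says that replicates were grown separately. Each p-value below is therefore set against a spread that may be only technical.

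EGF family ligands are made as membrane-anchored precursors and released by metalloproteases of the ADAM family. They bind the extracellular part of ERBB receptors, which pair, phosphorylate each other and feed the RAS-ERK and PI3K-AKT cascades. AREG and TGFA act through EGFR, HBEGF, BTC and EREG through EGFR and ERBB4, and neuregulins through ERBB3 and ERBB4. ERBB2 has no known ligand of its own and serves as a partner, and ERRFI1, also known as MIG6, blocks the EGFR kinase as a feedback inhibitor.

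In LACTB cells the transcripts of 3 EGFR ligands rose, TGFA and AREG the most and HBEGF less, and so did those of ERRFI1. EGFR, the main receptor transcript of these cells, stood at the same level in both groups to within a narrow interval, and ERBB2 was slightly lower. The unit is FPKM, which counts fragments relative to exon length and to the size of the library, and a gene was tested when its mean over the 6 libraries was at least 1 FPKM. By that filter 6 of the 10 members were tested, and BTC, NRG1, EREG and ERBB3 lay below it. Of the 6, 4 rose, 1 fell and 1 did not pass the test (limma on log2(FPKM + 1), Benjamini-Hochberg adjusted p under 0.05). Across all 11875 tested genes, 14.8% rose and 17.2% fell by the same rule, 32% in all. The median log2 fold change was 0.44 over the 6 tested members and -0.010 over all tested genes. The members were chosen with earlier results of these data known, so these counts and medians are a description only.

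The libraries held 16978799 to 18395631 reads in genes, recovered from the FPKM values and exon lengths. LACTB itself stood at 161.5 to 173.9 FPKM in the LACTB libraries and at 3.39 to 4.71 FPKM in the empty vector libraries, so all 6 matched their labels. At this depth 3 reads in a transcript of 2 kb amount to 0.0827 to 0.0872 FPKM. Empty vector replicate 3 stood apart, with 3.61% of its reads from the mitochondrial genome against 4.65% to 5.62% in the other libraries. Of 13 melanocyte markers, all 13 lay under 1 FPKM on average and S100B and OCA2 were at 0 in every library, so the transcripts do not show the pigment cell identity of the label. The summed level of these markers was 1.90 to 2.35 FPKM in LACTB libraries and 1.42 to 1.72 FPKM in empty vector libraries. Their part in the results below was not tested. Of 9 keratinocyte and epithelial markers, KRT8 and KRT18 averaged 163.7 and 143.8 FPKM in LACTB libraries against 184.9 and 161.8 FPKM in empty vector libraries, and the other 7 lay under 1 FPKM. All 9 immune and stromal markers lay under 1 FPKM.

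**Figure D1:**
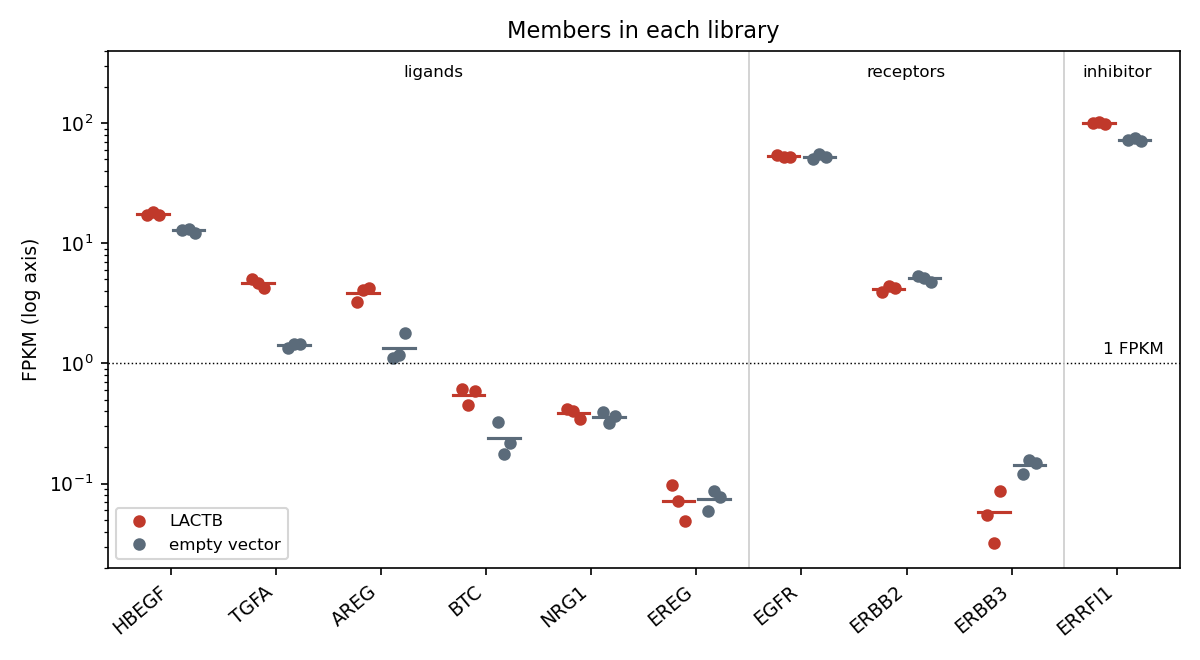
FPKM of the 10 members in each library on a log axis, with LACTB libraries in red and empty vector libraries in grey; points are libraries and short lines are group means. The LACTB points lie above all empty vector points for HBEGF, TGFA, AREG, BTC and ERRFI1, below them for ERBB2 and ERBB3, and mixed with them for NRG1, EREG and EGFR; the dotted line is the filter of 1 FPKM.

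TGFA (ENSG00000163235; GRCh38 chr2:70447280-70554193, minus strand), which encodes transforming growth factor alpha, showed the largest change among the tested members. It stood at 5.07, 4.71 and 4.21 FPKM in LACTB libraries, against 1.35, 1.47 and 1.44 FPKM in empty vector libraries. The groups lay far apart, and the lowest LACTB library was well above the highest empty vector library. The ratio of the means was 3.29, on 1234 reads summed over the LACTB libraries and 379 over the empty vector libraries. On the log2(FPKM + 1) scale, which understates changes of genes at such levels, the fold change was 1.22 (SE 0.072; limma, adjusted p = 5.47e-05). This placed TGFA at rank 59 of 11875 tested genes in order of rise.

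AREG (ENSG00000109321; chr4:74445134-74455009, plus strand), the ligand amphiregulin, came next. Its levels were 3.22, 4.09 and 4.25 FPKM in LACTB libraries and 1.10, 1.17 and 1.78 FPKM in empty vector libraries. All LACTB libraries were higher, and the nearest to them was empty vector replicate 3, whose mitochondrial share was low. Whether that share bears on AREG was not tested. The ratio of the means was 2.85 (log2 fold change 1.05, SE 0.13; limma, adjusted p = 0.00150). Without empty vector replicate 3 the log2 fold change was 1.18 (limma, adjusted p = 0.000965, within 1.21e-05 to 0.0110 over its alternatives). Leaving out any other library gave smaller values, from 0.97 without empty vector replicate 1 to 1.15 without LACTB replicate 1. The reads were few, 338 over the LACTB libraries and 120 over the empty vector libraries, and the ratio had an exact (Clopper-Pearson) 95% interval of 2.31 to 3.54 for counting error only.

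HBEGF (ENSG00000113070; chr5:140332843-140346631, minus strand), heparin-binding EGF-like growth factor, was the most abundant ligand transcript in every library. It stood at 17.2, 18.2 and 17.4 FPKM in LACTB libraries, against 13.0, 13.3 and 12.2 FPKM in empty vector libraries. The groups did not overlap and the replicates were close, with coefficients of variation of 2.98% in LACTB libraries and 4.37% in empty vector libraries. HBEGF rose 1.37-fold (log2 fold change 0.43, SE 0.047; limma, adjusted p = 0.000800). In absolute terms HBEGF gained more FPKM than TGFA or AREG did, with group means of 17.6 ± 0.524 FPKM in LACTB libraries and 12.8 ± 0.560 FPKM in empty vector libraries (SD, n = 3 each).

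BTC, NRG1 and EREG averaged under 1 FPKM. BTC, betacellulin, was at 0.608, 0.454 and 0.592 FPKM in LACTB libraries and 0.323, 0.176 and 0.217 FPKM in empty vector libraries, from 83 and 36 summed reads. Its groups did not overlap and the ratio of means was 2.31, with an exact (Clopper-Pearson) 95% counting interval of 1.55 to 3.52. When all 30629 genes with any read were tested, of which 8.67% were called and 4.09% rose, BTC did not pass (log2 fold change 0.33; limma, adjusted p = 0.0629). With limma voom on the recovered reads of 17734 genes with at least 20 reads, an alternative added after seeing the data by which 27.4% were called, 15.7% higher and 11.8% lower, BTC was called (log2 fold change 1.25, SE 0.34; adjusted p = 0.00872). The call for BTC therefore differed between the methods.

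NRG1, neuregulin 1, stood at 0.419, 0.405 and 0.348 FPKM in LACTB libraries and 0.396, 0.321 and 0.367 FPKM in empty vector libraries. The groups overlapped, and voom gave a log2 fold change of 0.15 with a 95% interval of -0.21 to 0.50 (adjusted p = 0.570). EREG, epiregulin, had 10, 7 and 5 reads in LACTB libraries and 6, 9 and 8 reads in empty vector libraries. Its levels overlapped too, and on so few reads the voom interval of -1.02 to 0.93 is wide (adjusted p = 0.955).

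Among the other ligands of the family, NRG2 was the only tested gene. It stood at 2.05, 1.90 and 1.86 FPKM in LACTB libraries against 2.36, 2.71 and 2.55 FPKM in empty vector libraries, so it was lower in each LACTB library. NRG2 fell by 0.27 on the log2 scale (limma, adjusted p = 0.0216). The call was lost without empty vector replicate 2 or 3 (adjusted p = 0.0723 and 0.0518) and without LACTB replicate 2 or 3 (adjusted p = 0.0710 and 0.0678), and also without the filter (0.0647) and as TPM (0.0526), within 0.00651 to 0.0723 over all alternatives. EGF had 18, 33 and 19 reads in LACTB libraries and 13, 10 and 13 in empty vector libraries, without overlap, and did not pass without the filter (limma, adjusted p = 0.274). EPGN had at most 1 read in a library, NRG4 had 3 to 7 reads, and NRG3 had no read in any library.

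**Figure D2:**
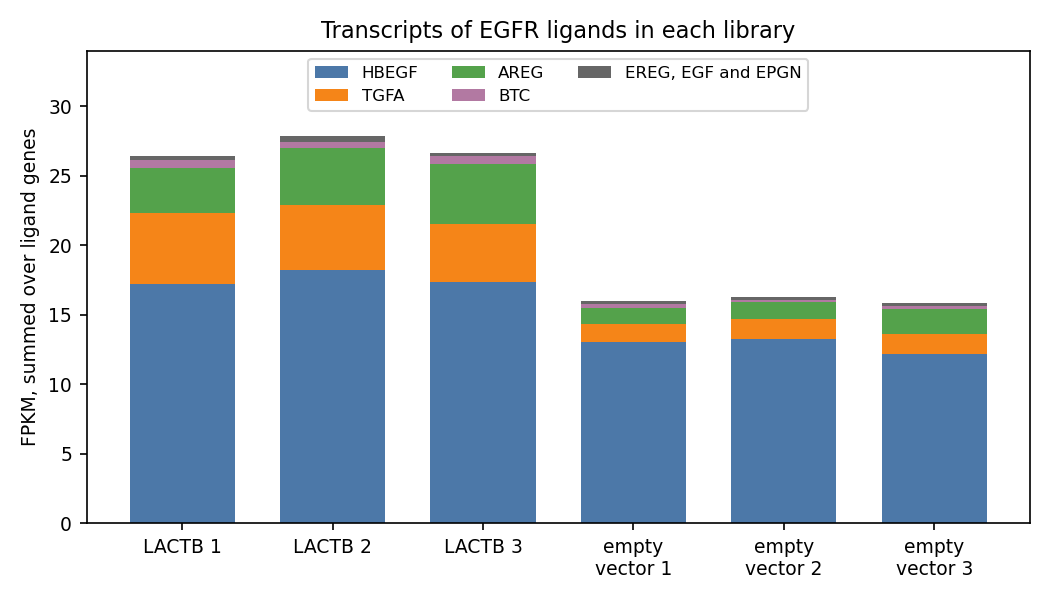
FPKM summed over the 7 ligands of EGFR in each library, with LACTB libraries at the left and empty vector libraries at the right; colours are genes. The sum was 26.4 to 27.8 FPKM in LACTB libraries and 15.8 to 16.3 FPKM in empty vector libraries, and the TGFA and AREG segments make up a larger share in LACTB libraries.

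Taken per length, the pool of transcripts for the 7 ligands that bind EGFR (AREG, EREG, HBEGF, TGFA, BTC, EGF and EPGN) was 27.0 ± 0.755 FPKM in LACTB libraries and 16.0 ± 0.229 FPKM in empty vector libraries (SD, n = 3 each), a ratio of 1.68. The makeup of the pool differed as well, given here as a description without a test. HBEGF made up 65.1% to 65.4% of it in LACTB libraries and 77.0% to 81.5% in empty vector libraries. TGFA made up 15.8% to 19.2% in LACTB libraries and 8.46% to 9.11% in empty vector libraries. AREG made up 12.2% to 15.9% in LACTB libraries and 6.91% to 11.3% in empty vector libraries. None of these 3 ranges overlapped between the groups. Transcript levels do not give the amount of shed ligand.

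No receptor transcript rose by the test. EGFR (ENSG00000146648; chr7:55019021-55211628, plus strand) stood at 53.8, 52.6 and 52.4 FPKM in LACTB libraries and 50.5, 55.2 and 52.5 FPKM in empty vector libraries, from 11117 to 12538 reads each. The LACTB values lay inside the range of the empty vector values. The log2 fold change was 0.0071, with a 95% interval of -0.096 to 0.11 (limma, adjusted p = 0.921), that is, a ratio of FPKM + 1 between 0.935 and 1.08. The antisense gene EGFR-AS1, which lies within EGFR, averaged 0.288 FPKM in LACTB libraries and 0.330 FPKM in empty vector libraries.

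ERBB2 (ENSG00000141736; chr17:39687914-39730426, plus strand), the ligandless partner, stood at 3.91, 4.39 and 4.23 FPKM in LACTB libraries and 5.39, 5.15 and 4.77 FPKM in empty vector libraries. All LACTB libraries were lower. The mean was 1.22-fold lower and ERBB2 fell by 0.24 on the log2 scale (SE 0.061; limma, adjusted p = 0.0240). The call depended on single libraries: the adjusted p was 0.0743 and 0.0678 without empty vector replicate 1 or 2, and 0.0673 and 0.0598 without LACTB replicate 1 or 3, within a range of 0.00673 to 0.0743 over all alternatives. It was also lost without the filter on low values (adjusted p = 0.0687). PGAP3 and MIEN1, genes on the opposite strand that overlap ERBB2 by 8884 and 1931 bases, averaged 0.777 and 5.63 FPKM in LACTB libraries and 0.376 and 5.82 FPKM in empty vector libraries, and the use of strand in counting is not given in the sources used here.

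ERBB3, the receptor of neuregulins that signals through its partner's kinase, was almost absent. It had 9, 5 and 14 reads in LACTB libraries and 19, 26 and 24 reads in empty vector libraries. That is 0.055, 0.032 and 0.086 FPKM in LACTB libraries and 0.120, 0.159 and 0.147 FPKM in empty vector libraries, without overlap. Without the filter ERBB3 did not pass (log2 fold change -0.11; limma, adjusted p = 0.106), where 4.58% of genes fell, and with voom on recovered reads it did (log2 fold change -1.30, SE 0.39; adjusted p = 0.0163). ERBB4, the fourth receptor, had 8 to 11 reads in every library. EGFR made up 92.2% to 93.1% of the summed FPKM of the 4 receptors in LACTB libraries and 90.1% to 91.4% in empty vector libraries. The pool of EGFR ligand transcripts amounted to 0.491 to 0.530 of the EGFR level in LACTB libraries and 0.295 to 0.316 of it in empty vector libraries.

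ERRFI1 (ENSG00000116285; chr1:8004404-8026308, minus strand) was the most abundant member. It stood at 99.98, 101.3 and 98.4 FPKM in LACTB libraries and 72.3, 74.5 and 70.7 FPKM in empty vector libraries, on 5326 to 7578 reads each. The groups were separated by a gap many times wider than the spread within them, 99.9 ± 1.46 FPKM in LACTB libraries against 72.5 ± 1.87 FPKM in empty vector libraries (SD, n = 3 each). ERRFI1 rose 1.38-fold (log2 fold change 0.46, SE 0.038; limma, adjusted p = 0.000252). Relative to EGFR, which it inhibits, ERRFI1 stood at 1.86 to 1.93 in LACTB libraries and 1.35 to 1.43 in empty vector libraries. An antisense gene that overlaps it by 909 bases, AL034417.4, averaged 0.338 FPKM in LACTB libraries and 0.221 FPKM in empty vector libraries.

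**Figure D3:**
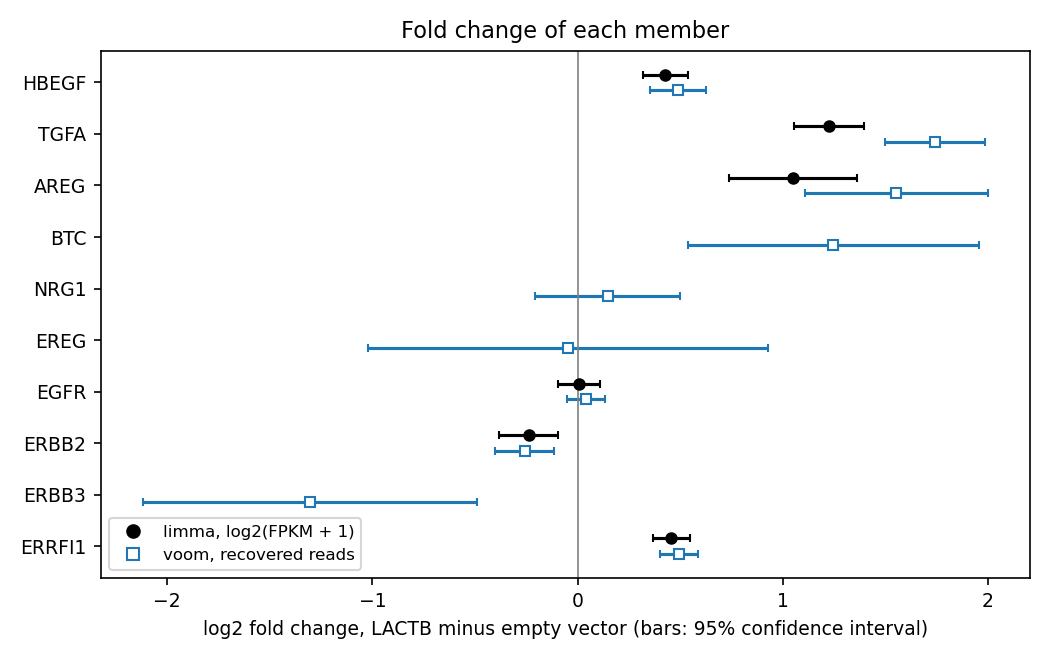
Log2 fold change of each member, LACTB minus empty vector, with 95% confidence intervals; black circles are limma on log2(FPKM + 1) for the 6 members over the filter, blue squares are voom on recovered reads for all 10. The intervals of HBEGF, TGFA, AREG and ERRFI1 lie above 0 and that of ERBB2 below 0 by both methods, while the EGFR, NRG1 and EREG intervals include 0.

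Counting the 4 members below the filter, the values of 7 of the 10 members did not overlap between the groups, 5 with LACTB above and 2 with LACTB below. Among the 6 tested members it was 5. Of all tested genes, 22.3% had every LACTB library above and 25.1% had every LACTB library below the others, 47.4% in all. Within LACTB libraries the order of levels was ERRFI1, EGFR, HBEGF, then TGFA, ERBB2 and AREG with overlapping values, then BTC, NRG1, and last EREG and ERBB3 with overlapping values. Within empty vector libraries ERBB2 stood above TGFA and AREG, whose values overlapped each other. NRG1 and BTC overlapped there as well, and ERBB3 lay above EREG. TGFA and AREG thus stood level with ERBB2 in LACTB libraries and below it in empty vector libraries. In bulk RNA, a change in some of the cells and a change in all of them cannot be told apart.

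Replicate spread could be set against counting error. For TGFA the coefficient of variation was 9.28% in LACTB libraries and 4.24% in empty vector libraries, where its read numbers alone give 4.93% and 8.90%. For AREG it was 14.4% in LACTB libraries and 27.7% in empty vector libraries, with 9.42% and 15.8% from counting. For EGFR, the deepest member, counting error was 0.921% in LACTB libraries and 0.919% in empty vector libraries, and the observed spread 1.47% and 4.48%. The spread was thus larger than counting error for AREG and EGFR in both groups and for TGFA in LACTB libraries. For TGFA in empty vector libraries it was smaller. In proportion the excess was largest for EGFR in empty vector libraries, where the spread was several times the counting error.

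The sequences next to the start sites of the 4 risen members are shown because these genes rose together, with that of EREG, the neighbour of AREG whose groups overlapped. The windows are RefSeq's (GRCh38.p14), 250 bases before to 50 bases after the start, 5′ to 3′ on the gene's strand, and 8 of the 10 members have a window used here. Capitals mark every match, on either strand, to 7 motifs. These are the cyclic AMP response element TGACGTCA, the AP-1 site TGANTCA, the C/EBP-ATF response element TGATGNAA, the antioxidant response element core TGACNNNGC, the TEAD site GGAATG, the TATA box TATAAA and the GC box GGGCGG.
AREG (chr4:74444886-74445185, plus strand): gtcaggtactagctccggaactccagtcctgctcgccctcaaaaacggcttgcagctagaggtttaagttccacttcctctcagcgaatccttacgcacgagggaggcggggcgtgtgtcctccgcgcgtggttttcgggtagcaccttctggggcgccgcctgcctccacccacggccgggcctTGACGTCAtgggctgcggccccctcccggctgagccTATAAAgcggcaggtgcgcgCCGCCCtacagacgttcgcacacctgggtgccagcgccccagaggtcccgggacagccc
EREG (chr4:74364895-74365194, plus strand): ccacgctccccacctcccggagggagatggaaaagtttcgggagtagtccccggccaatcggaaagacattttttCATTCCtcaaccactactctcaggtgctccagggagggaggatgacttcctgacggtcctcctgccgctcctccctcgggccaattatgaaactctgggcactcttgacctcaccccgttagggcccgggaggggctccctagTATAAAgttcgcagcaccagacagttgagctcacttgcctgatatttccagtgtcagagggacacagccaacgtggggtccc
TGFA (chr2:70553777-70554076, minus strand): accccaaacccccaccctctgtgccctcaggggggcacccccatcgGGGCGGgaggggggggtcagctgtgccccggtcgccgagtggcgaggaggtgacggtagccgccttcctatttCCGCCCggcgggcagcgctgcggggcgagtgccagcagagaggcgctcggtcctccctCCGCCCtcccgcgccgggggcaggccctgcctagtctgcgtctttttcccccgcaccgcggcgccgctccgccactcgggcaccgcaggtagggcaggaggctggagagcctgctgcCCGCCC
HBEGF (chr5:140346554-140346853, minus strand): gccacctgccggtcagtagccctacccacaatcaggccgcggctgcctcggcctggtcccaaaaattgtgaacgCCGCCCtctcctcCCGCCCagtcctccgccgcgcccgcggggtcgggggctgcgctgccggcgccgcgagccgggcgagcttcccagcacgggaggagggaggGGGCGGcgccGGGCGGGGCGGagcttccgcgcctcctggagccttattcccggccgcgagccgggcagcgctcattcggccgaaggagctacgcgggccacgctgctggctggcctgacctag
ERRFI1 (chr1:8026260-8026559, minus strand): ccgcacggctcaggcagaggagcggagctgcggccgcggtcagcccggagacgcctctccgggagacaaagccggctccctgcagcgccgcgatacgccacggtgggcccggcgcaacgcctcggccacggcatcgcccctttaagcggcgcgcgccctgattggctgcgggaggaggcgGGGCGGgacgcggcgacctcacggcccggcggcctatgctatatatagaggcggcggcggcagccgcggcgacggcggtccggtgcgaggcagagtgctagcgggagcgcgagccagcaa

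The AREG window held a cyclic AMP response element at -65, a TATA box at -29 and a GC box at -9, counted from the RefSeq start site as +1. Across 35116 windows of 300 bases, 1.85% held that response element, 11.5% a TATA box and 45.0% a GC box. The EREG window held a TATA box at -32 and a TEAD site, in reverse orientation, at -175. The TEAD letters were in 14.0% of windows. TGFA, HBEGF and ERRFI1 had no TATA box match in their windows, but 4, 5 and 1 GC boxes. None of these 5 windows held the AP-1, C/EBP-ATF or antioxidant letters, which 7.71%, 3.62% and 13.3% of windows hold. The window of EGFR, whose groups overlapped, likewise held 3 GC boxes and no TATA box match. That of BTC held 1 GC box, and that of ERBB2 an AP-1 site at -222. These matches are letters only, and the absence of a match says only that the letters are not in this window. TGFA and EGFR each had 2 windows, and the nearest to the annotated GENCODE end was used. The RefSeq start of TGFA lay 367 bases inside the annotated end of the GENCODE gene.

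AREG and EREG share a stretch of chromosome 4 with other ligands. EPGN, EREG and AREG lie in that order on the plus strand of GRCh38, with EREG at 74365143 to 74388751 and AREG at 74445134 to 74455009, and BTC follows at 74744759 to 74794686 on the minus strand. The start of EREG lies at -79.99 kb from that of AREG, yet AREG was at 3.85 ± 0.556 FPKM and EREG at 0.072 ± 0.024 FPKM in LACTB libraries, and AREG at 1.35 ± 0.375 FPKM and EREG at 0.075 ± 0.014 FPKM in empty vector libraries (SD, n = 3 each). A window of 1000 kb on each side of AREG was chosen after the values were seen. The other genes in it averaging 1 FPKM or more were the chemokine genes CXCL8, CXCL1, CXCL3 and CXCL2. All 4 rose, where 14.8% of all tested genes rose. CXCL3 passed the filter only through its LACTB libraries, and the count is a description only. CXCL8 and CXCL1 had ratios of 5.58 and 4.32 (limma, adjusted p = 7.51e-06 and 2.93e-06). CXCL2 was at 13.4 ± 0.112 FPKM in LACTB libraries and 4.45 ± 0.747 FPKM in empty vector libraries, a ratio of 3.02 (log2 fold change 1.41; limma, adjusted p = 8.95e-05). CXCL3 was at 3.76 ± 0.177 FPKM in LACTB libraries and 0.790 ± 0.167 FPKM in empty vector libraries, a ratio of 4.76 (log2 fold change 1.41; limma, adjusted p = 6.38e-05). CXCL1, CXCL2 and CXCL3 are close copies whose reads can be shared.

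**Figure D4:**
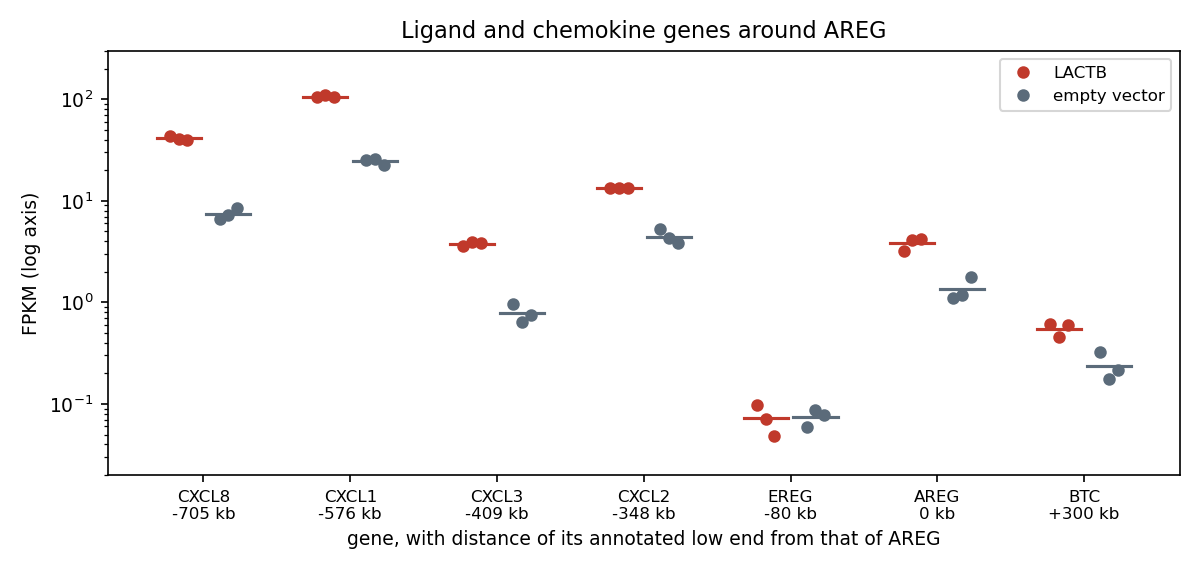
FPKM in each library, on a log axis, of the ligand and chemokine genes around AREG in chromosomal order (not to scale), with the distance of each from AREG; LACTB libraries are red, empty vector libraries grey, and lines are means. The LACTB points lie above the empty vector points for each gene drawn except EREG; EPGN, with at most 1 read in a library, is left out.

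The 5 tested genes whose log2 values followed those of TGFA most closely over the 6 libraries were ELL2, SARS, NRP1, FAM107B and XPOT, with Pearson's r of 0.998 to 0.999. With 2 groups of 3 libraries, any gene with a wide gap and little spread comes near such values, so r is a description only. FAM107B had a ratio of 2.22, with 14.7 ± 0.818 FPKM in LACTB libraries and 6.62 ± 0.153 FPKM in empty vector libraries (log2 fold change 1.04; limma, adjusted p = 1.97e-05). The other 4 had ratios of 1.40 to 1.64.

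No tested gene of the list for ligand release rose by the test. The list also holds genes other than ADAM proteases, among them TIMP3 and CD9, so its count and median do not measure release. Of 10 tested genes for ligand release, 3 fell and 0 rose, with a median log2 fold change of -0.087; 14.8% of all tested genes rose and 17.2% fell. ADAM17, the main sheddase of TGFA, AREG and HBEGF, was at 4.50 FPKM in LACTB libraries and 4.22 FPKM in empty vector libraries (log2 fold change 0.078; limma, adjusted p = 0.353). ADAM10, which cuts BTC and EGF, fell to 11.97 ± 0.385 FPKM in LACTB libraries, against 14.1 ± 0.300 FPKM in empty vector libraries (limma, adjusted p = 0.00834). The ADAM10 call was lost as TPM (adjusted p = 0.0696, within 0.00378 to 0.0696 over all alternatives). ADAM9 was 1.21-fold lower (limma, adjusted p = 0.00278). CD9, a membrane partner of the HBEGF precursor, was 1.26-fold lower (limma, adjusted p = 0.0351). The CD9 call was lost without empty vector replicate 1 or 2 (adjusted p = 0.0975 and 0.101) or any LACTB library (adjusted p = 0.0786 to 0.102), within a range of 0.000789 to 0.120 over all alternatives.

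Of 22 tested genes that switch off or sort the receptors, 3 rose and 4 fell, with a median log2 fold change of 0.066. These 7 calls are close to the 32% called among all tested genes. RNF41, a ubiquitin ligase of ERBB3, rose 1.43-fold to 8.97 ± 0.261 FPKM in LACTB libraries, against 6.28 ± 0.365 FPKM in empty vector libraries (limma, adjusted p = 0.00101). CBL, the ubiquitin ligase that marks EGFR for breakdown, rose 1.33-fold to 13.3 ± 0.694 FPKM in LACTB libraries, against 10.0 ± 0.645 FPKM in empty vector libraries (adjusted p = 0.00378). The CBL-binding adaptor SH3KBP1 rose 1.17-fold. Among those that fell, the clathrin heavy chain CLTC was 1.17-fold lower, the receptor-degrading SOCS5 1.32-fold and LRIG1, a transmembrane inhibitor of ERBB receptors, 1.33-fold. The CLTC call was lost as TPM (limma, adjusted p = 0.0697, within 0.00132 to 0.0697 over all alternatives). The LRIG1 call was lost when any 1 library was left out (limma, adjusted p = 0.0546 to 0.103, within 0.00823 to 0.103 over all alternatives). Only 2 genes of the list fell without LACTB replicate 1 or 2 or without any 1 of the empty vector libraries, and 3 without LACTB replicate 3. The number that rose ran from 3 to 6 over all alternatives, the most with voom on genes of at least 20 reads.

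Below the receptors, of 14 tested adaptors and RAS-ERK genes, 1 rose and 1 fell, against 14.8% and 17.2% of all tested genes, with a median log2 fold change of -0.041. SOS2, an exchange factor for RAS, rose 1.25-fold (limma, adjusted p = 0.00397), and GRB2, the adaptor that links receptors to SOS, was 1.14-fold lower (adjusted p = 0.0172). The GRB2 call was lost without empty vector replicate 2 (adjusted p = 0.0550) or LACTB replicate 2 (adjusted p = 0.0572), within 0.00929 to 0.0980 over all alternatives, and as TPM (0.0980). The number that fell was 2 without empty vector replicate 3. Of 13 tested genes of the PI3K, PLC, SRC and STAT arms, 5 fell and 0 rose, against 17.2% and 14.8% of all tested genes, with a median of -0.12. In this list 4 genes fell when any 1 library was left out, and 3 without the filter. STAT3 fell to 12.4 ± 0.326 FPKM in LACTB libraries, against 16.5 ± 0.403 FPKM in empty vector libraries (limma, adjusted p = 0.000739), and the PI3K catalytic subunit genes PIK3CB and PIK3CD were 1.28-fold and 1.36-fold lower.

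**Figure D5:**
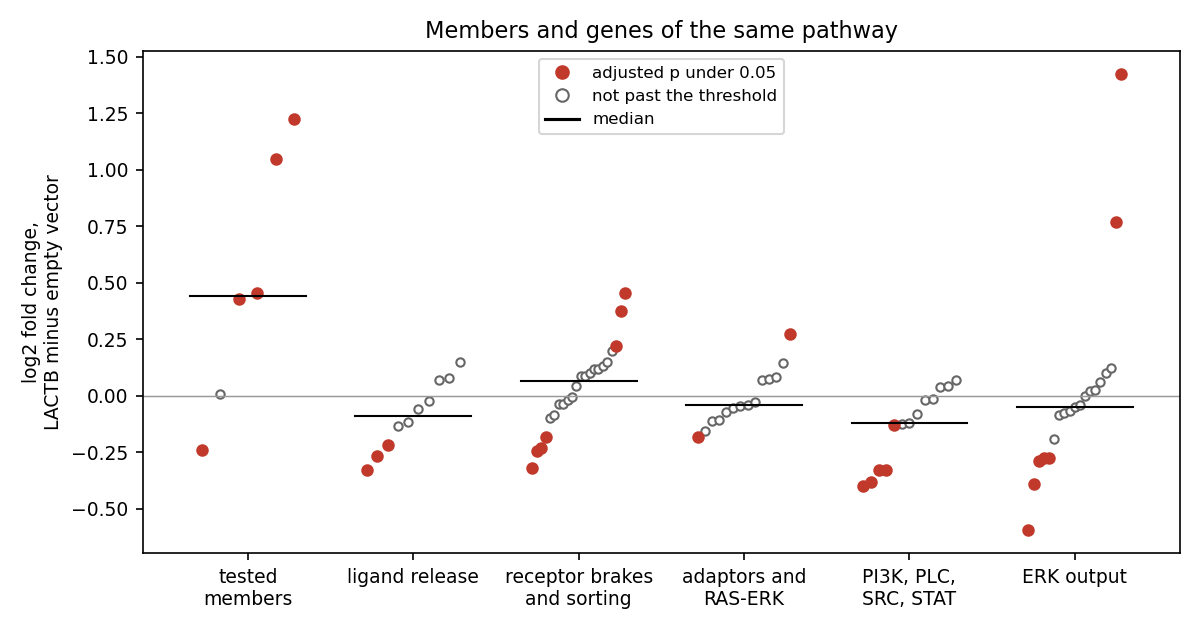
Log2 fold change, LACTB minus empty vector, of each tested member and of each tested gene in 5 lists of the same pathway; filled points passed an adjusted p under 0.05, open points did not, and lines are medians. The 6 tested members run from -0.24 to 1.22 with a median of 0.44; the medians of the 5 lists lie between -0.12 and 0.066, and single genes in them reach 1.43 (EGR1). The members and lists were chosen with earlier results of these data known, so the medians are a description only.

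Of 19 tested output genes of ERK signalling, 2 rose and 5 fell, against 14.8% and 17.2% of all tested genes, with a median log2 fold change of -0.051. In this list 4 genes fell without empty vector replicate 1 or 2 or without LACTB replicate 1 or 3. Over all alternatives 4 to 7 fell. EGR1, an immediate early transcription factor, was at 18.6 ± 0.220 FPKM in LACTB libraries and 6.30 ± 0.544 FPKM in empty vector libraries, a 2.95-fold rise (limma, adjusted p = 1.10e-05). DUSP4, a phosphatase that inactivates ERK, rose 1.82-fold (adjusted p = 0.000144). ETV1 was 1.59-fold lower, the receptor signalling inhibitor SPRY2 1.33-fold and the ERK phosphatase DUSP5 1.22-fold. DUSP6, a widely used readout of ERK activity, was at 11.3 FPKM in LACTB libraries and 11.9 FPKM in empty vector libraries (limma, adjusted p = 0.297). ADAM17 and DUSP6 were named outside the rule for named genes, after their values were seen.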

How the data were processed

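The samples were 6 RNA-seq libraries, 3 with LACTB and 3 with an empty vector, grouped by the labels. The submitters' processing notes name build GRCh38 (hg38), DESeq2 1.16.1, featureCounts 1.5.0-p3 and HISAT2 2.0.5, in no stated order or role. Annotation, strand and the treatment of multi-mapping reads: not given in the sources used here. The authors deposited FPKM values for 58735 genes, all of whose IDs matched GENCODE 29 (GRCh38). Multiplied by exon length, 100% of the values above 0 gave whole reads (tolerance 0.1 reads), and these are the reads quoted. Intervals on reads cover counting error only.

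Main test: limma 3.58.1 in R 4.3.3 with a variance trend on log2(FPKM + 1), pseudocount 1, for the 11875 genes averaging 1 FPKM or more, with Benjamini-Hochberg adjustment over all of them and a threshold of 0.05. It was tested on simulated libraries, drawn independently and with none that stood apart. That run does not show how its p-values hold for the libraries used here. Ratios are of mean FPKM. The text names all members and other family genes, LACTB, up to 3 risen and 3 fallen genes of smallest p per pathway list, and 5 genes most like TGFA. The members and lists were chosen with earlier results of these data known. No pair of libraries of a group agreed within sampling noise. The chi-square per degree of freedom was 2.02 to 4.87 among LACTB libraries and 3.07 between empty vector replicates 1 and 2. It was 12.0 and 12.4 for the pairs with empty vector replicate 3. Each library counted as 1 sample, but such an excess does not show that the cultures were separate. Promoter windows came from RefSeq. Alternatives were other pseudocounts, filters, scalings, variance models, voom, a replicate block and each library left out.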

Additional observations from a re-analysis of the deposited data

How the results depend on the processing

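Of the 11875 tested genes, 1758 rose and 2038 fell. At an adjusted p under 0.01 these were 847 and 1004. With a mean of at least 5 FPKM, 6980 genes were tested, and 1155 rose and 1605 fell. The balance turned as TPM, where a cut of 1 TPM left 16070 genes, of which 1615 rose and 1295 fell. The TPM fit thus also differs in its set of genes. With voom on the 11875 genes of the main test, 2353 rose and 1942 fell, so the balance turned there too. With voom on genes of at least 20 reads, added after seeing the data, 2779 rose and 2084 fell. Leaving out 1 library gave 1115 (without LACTB replicate 2) to 1505 genes that rose and 1388 to 1800 that fell. With the replicate number as a block, 1155 rose and 1324 fell. Same-numbered libraries did not deviate together (correlations of -0.126, 0.019 and -0.044), so the numbers were not taken to pair the libraries; among the members the block ended the call of ERBB2 (limma, adjusted p = 0.0708; 0.00673 to 0.0743 over its alternatives). The cause was not tested.

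AREG and TGFA kept direction and call in all 19 of their alternatives, and HBEGF and ERRFI1 in all 20, with log2 fold changes of 0.97 to 1.56, 1.17 to 1.74, 0.40 to 0.49 and 0.44 to 0.50. EGFR passed in none of 20 (-0.023 to 0.041; limma, lowest adjusted p = 0.525). ERBB2 lost its call in 7 of 19, among them the stricter threshold. AREG, TGFA and ERBB2 have no value at a mean of at least 5 FPKM. No member reversed a call. Depth limits BTC, EREG and ERBB3, whose reads per library numbered 5 to 31. BTC and ERBB3 passed with voom and not on log2(FPKM + 1), which understates changes of genes at such levels. Their log2 fold changes were 0.33 and -0.11 on that scale without the filter, against 1.25 and -1.30 with voom.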
